A study of Mus musculus with 14 samples.

Results

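Type 2 inflammation of the lung is carried by a small set of secreted proteins, and 4 of their genes are described here: Il4, Il5 and Il13, the signature cytokines of type 2 helper T cells and group 2 innate lymphoid cells (ILC2), and Areg, which encodes amphiregulin. They were chosen by gene name, as 4 of the 54347 genes in each of the 3 deposited count tables. RNA was measured by sequencing of 14 mouse lung libraries from 3 experiments, and every mouse had received 2 mg of Alternaria alternata extract, a fungal allergen, into the nose on each of 4 days. In the chimera experiment, irradiated recipients that carried human JAK1 with a gain of function (JAK1 GOF recipients, 2 libraries) or were wild type (WT recipients, 2 libraries) were given 10000000 live WT bone marrow cells each. In the intrathecal experiment, WT C57BL/6 mice received resiniferatoxin (RTX), an ultrapotent activator of the heat and capsaicin channel TRPV1 used to kill the nerve cells that carry it, at 25 ng per mouse for 2 days into the fluid around the spinal cord (3 libraries), or 10 µl of saline by the same route (vehicle, 2 libraries), to remove spinal visceral afferents. In the subcutaneous experiment, WT C57BL/6 mice received RTX at 30, 70 and 100 µg/kg over 3 days (3 libraries), or 100 µl of saline (vehicle, 2 libraries), to remove both vagal and spinal afferents. No group without allergen was analysed here, and the sources used here give neither age nor sex. The labels give C57BL/6 as the strain of the chimeras too, and name neither the promoter or cells that drive the JAK1 allele nor the share of blood cells that the transplant replaced.

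IL-4 promotes type 2 helper T cell differentiation and antibody class switching, IL-5 drives the growth and survival of eosinophils, and IL-13 acts on airway epithelium, smooth muscle and macrophages, where it induces mucus and eotaxins. IL-4 and IL-13 share the receptor chain IL-4Rα and signal through JAK1 and STAT6, while IL-5 uses IL-5Rα with the common beta chain. Amphiregulin is a ligand of the EGF receptor, cut from the cell surface by ADAM17, and is made by ILC2, regulatory T cells, other leukocytes and epithelium during tissue repair.

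On GRCm38, Il4 (ENSMUSG00000000869.12) lies at chr11:53602982-53618669 and Il13 (ENSMUSG00000020383.1) at chr11:53631324-53634702, both on the minus strand. Il5 (ENSMUSG00000036117.2) lies at chr11:53720794-53725106 on the plus strand. Il4 and Il13 are 12.7 kb apart, and Rad50, a DNA repair gene, fills most of the 86.1 kb between Il13 and Il5. Areg (ENSMUSG00000029378.5) lies on another chromosome, at chr5:91139599-91148432 on the plus strand, between Ereg (46.0 kb away) and Btc (208.8 kb away), which encode further EGF receptor ligands. An antisense gene, Gm12214, overlaps Il5, and it held 2.82 counts summed over the 14 libraries.

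The promoters are shown because Il4, Il5 and Il13 form 1 locus and shared a pattern of levels that Areg did not have. Each is the 250 bases before the start annotated by RefSeq on GRCm38.p6, 5′ to 3′ on the strand of the gene. Capitals mark matches on either strand to 6 short motifs, namely AGATAA for the GATA factor family, TTC and GAA with any 4 bases between them for STAT6, GGAAAA for NFAT, TGANTCA for AP-1, TGACGTCA for CREB, and the core TATAAA of the so-called TATA box. The windows are chr11:53618666-53618915 for Il4, chr11:53720544-53720793 for Il5, chr11:53634703-53634952 for Il13 and chr5:91139349-91139598 for Areg.
Il4: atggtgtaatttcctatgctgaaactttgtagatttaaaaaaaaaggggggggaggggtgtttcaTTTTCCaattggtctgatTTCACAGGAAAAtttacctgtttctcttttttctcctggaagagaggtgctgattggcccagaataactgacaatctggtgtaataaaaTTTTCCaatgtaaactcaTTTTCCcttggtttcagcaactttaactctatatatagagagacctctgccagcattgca
Il5: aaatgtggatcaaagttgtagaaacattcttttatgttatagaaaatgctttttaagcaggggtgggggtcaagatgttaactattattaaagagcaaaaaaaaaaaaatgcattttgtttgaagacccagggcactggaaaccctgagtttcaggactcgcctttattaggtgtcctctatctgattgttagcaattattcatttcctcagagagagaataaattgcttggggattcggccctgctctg
Il13: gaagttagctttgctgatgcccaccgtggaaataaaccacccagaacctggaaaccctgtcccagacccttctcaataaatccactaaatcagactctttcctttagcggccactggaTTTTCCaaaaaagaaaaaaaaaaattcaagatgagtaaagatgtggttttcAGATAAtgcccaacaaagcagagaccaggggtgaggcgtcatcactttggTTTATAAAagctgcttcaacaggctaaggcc
Areg: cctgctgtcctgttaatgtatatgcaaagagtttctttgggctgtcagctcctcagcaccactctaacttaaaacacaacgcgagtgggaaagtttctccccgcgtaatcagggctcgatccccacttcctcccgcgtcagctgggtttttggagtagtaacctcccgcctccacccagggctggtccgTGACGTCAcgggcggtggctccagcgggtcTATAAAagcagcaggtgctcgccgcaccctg
Counting back from −1, the base before the start, the Il4 window held 4 matches to the NFAT motif, at −185, −161, −78 and −60, and 1 to the STAT6 motif at −167, which overlaps the NFAT match at −161. The Il13 window held an NFAT match at −132, a GATA match at −81 and overlapping TATA matches on both strands at −31 and −29. The Areg window held the full CREB motif at −61 and a TATA match at −31, and the Il5 window held none of the 6 motifs as spelled above. Variants of these spellings were not searched. Over 32851 RefSeq windows of the same length (27025 genes), the NFAT motif was in 20.4%, the TATA motif in 12.4%, GATA in 10.0%, AP-1 in 6.7%, STAT6 in 5.9% and CREB in 1.5%. Matches are descriptions of the letters, not sites of binding.

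The libraries held between 18198872 and 24393000 counts and between 23427 and 24391 genes with at least 1 count. Values below are counts scaled to a library total of 1000000 (CPM), and 3 counts, the most that a count of 0 allows, were worth 0.123 to 0.165 CPM. Summed CPM of 10 lung epithelial markers lay between 13963 and 27460 in every library. Mouse Jak1 was at 204 and 191 CPM in JAK1 GOF recipients and at 256 and 281 CPM in WT recipients, which does not check the human allele. Whether replicates are separate mice is not stated in the labels; if they are not, the p-values given here reflect technical spread. In whole lung, fewer cells of a type and less RNA per cell cannot be told apart.

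Across the 6 groups, the 3 cytokine genes fell into 2 levels, low in both groups of transplanted mice and high in the 4 groups of mice that had no transplant, while Areg stayed within a narrow range. Over all 14 libraries, the highest CPM was 167 times the lowest for Il5, 95.7 times for Il13, 35.5 times for Il4 and 2.95 times for Areg. Within the 10 libraries of the 2 RTX experiments the same ratios were 4.17, 2.61, 2.96 and 2.69. Il5 was at most 0.333 CPM in the 4 transplanted libraries and at least 3.59 CPM in the other 10, so the nearest libraries of the 2 sets were 10.8-fold apart. Il13 was at most 1.10 CPM in transplanted libraries against at least 6.05 CPM, a gap of 5.50-fold, and Il4 at most 0.670 CPM against at least 1.32 CPM, a gap of 1.97-fold. Areg overlapped between the sets, at 5.87 to 8.66 CPM in transplanted libraries and 6.43 to 17.3 CPM in the others.

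**Figure D1:**
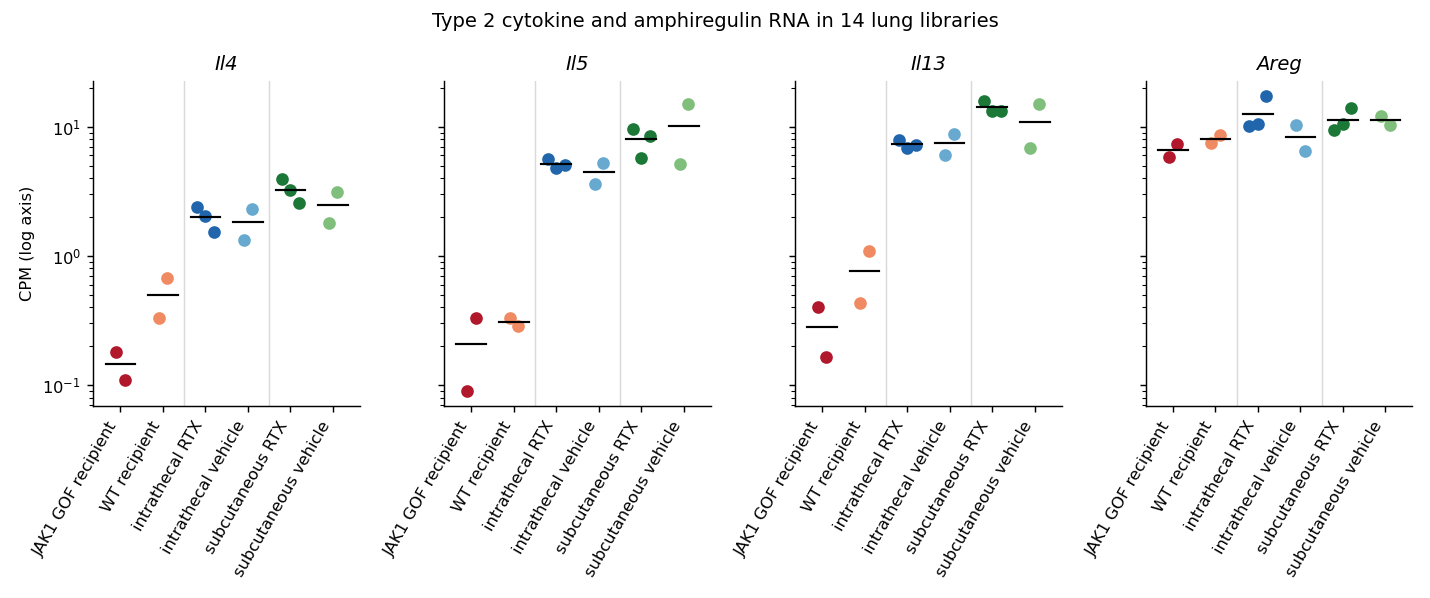
CPM of Il4, Il5, Il13 and Areg on a log axis in the 14 libraries (points), by group, with the group mean as a black line. The 4 libraries of transplanted mice lie below the other 10 for Il4, Il5 and Il13, and overlap them for Areg.

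Il13 averaged 0.284 ± 0.168 CPM in JAK1 GOF recipients and 0.764 ± 0.475 CPM in WT recipients (SD, n = 2 each). It averaged 7.31 ± 0.477 CPM after intrathecal RTX (SD, n = 3) and 7.42 ± 1.94 CPM after intrathecal vehicle (SD, n = 2), then 14.05 ± 1.503 CPM after subcutaneous RTX (SD, n = 3) and 10.9 ± 5.77 CPM after subcutaneous vehicle (SD, n = 2). In order of level, subcutaneous RTX came first, then subcutaneous vehicle, intrathecal vehicle and intrathecal RTX, each overlapping the next. WT recipients and then JAK1 GOF recipients followed, each separate from the group above. Il4 averaged 0.145 ± 0.0490 CPM in JAK1 GOF recipients and 0.502 ± 0.238 CPM in WT recipients (SD, n = 2 each). It averaged 1.98 ± 0.447 CPM after intrathecal RTX and 1.81 ± 0.702 CPM after its vehicle, and 3.23 ± 0.657 CPM after subcutaneous RTX and 2.46 ± 0.925 CPM after its vehicle (SD, n = 3 and 2). Its order was that of Il13 except that the intrathecal groups changed places, and again only the WT and JAK1 GOF recipients were separate from the group above.

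Il5 averaged 0.210 ± 0.170 CPM in JAK1 GOF recipients and 0.310 ± 0.0326 CPM in WT recipients (SD, n = 2 each), which overlapped at the low level. It averaged 5.12 ± 0.418 CPM after intrathecal RTX and 4.42 ± 1.18 CPM after its vehicle, and 7.96 ± 1.99 CPM after subcutaneous RTX and 10.1 ± 6.96 CPM after its vehicle (SD, n = 3 and 2). The subcutaneous vehicle group was thus the highest, but its 2 libraries enclosed those of subcutaneous RTX, and the intrathecal groups, which came next by their means, overlapped each other. The RTX libraries of the subcutaneous route were all above those of the intrathecal route, while the lower subcutaneous vehicle library was not. Areg averaged 6.59 ± 1.02 CPM in JAK1 GOF recipients and 8.08 ± 0.819 CPM in WT recipients. It averaged 12.6 ± 4.08 CPM after intrathecal RTX and 8.38 ± 2.75 CPM after its vehicle, and 11.3 ± 2.42 CPM after subcutaneous RTX and 11.2 ± 1.13 CPM after its vehicle. In its order by mean, intrathecal RTX, subcutaneous RTX and subcutaneous vehicle overlapped in a row. Intrathecal vehicle came next, separate from subcutaneous vehicle only by 10.32 against 10.38 CPM. Its higher library was above the lowest library of intrathecal RTX (10.03 CPM) and of subcutaneous RTX (9.42 CPM). WT recipients overlapped it, and JAK1 GOF recipients came last, separate from WT recipients.

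In 1 fit of all 14 libraries, edgeR's quasi-likelihood test for any difference among the 6 groups gave an adjusted p of 3.80e-05 for Il13, 9.70e-05 for Il5 and 0.000212 for Il4. The largest and smallest fitted group levels were 5.59 log2 units apart for Il13, 5.67 for Il5 and 4.44 for Il4. In the same test Areg spanned 0.98 log2 units, with an adjusted p of 0.0585. So 3 of the 4 genes were called, against 39.7% of all 18364 genes tested. DESeq2 called Areg too (adjusted p 0.0107), as did edgeR without intrathecal RTX library 1 (0.0439) or without intrathecal vehicle library 1 (0.0326). Experiment and group cannot be told apart in this test.

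The controls of the experiments were then compared: WT recipients were irradiated and transplanted, and the vehicle controls were not, and both had WT genes and the allergen. Il5, Il13 and Il4 fell, and Areg did not pass the test. Il5 stood at 0.333 and 0.287 CPM in the WT recipients, against 3.59 and 5.26 CPM after intrathecal and 5.14 and 15.0 CPM after subcutaneous vehicle. It fell by 4.45 ± 0.56 on the log2 scale (SE, adjusted p 0.000504, edgeR's quasi-likelihood test). Every WT recipient was below every vehicle library, and by p Il5 stood at place 101 of the 18364 genes tested.

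Il13 stood at 0.429 and 1.10 CPM in the WT recipients, against 6.05 and 8.79 CPM after intrathecal and 6.82 and 15.0 CPM after subcutaneous vehicle. It fell by 3.59 ± 0.42 on the log2 scale (SE, edgeR adjusted p 0.00031), place 67 of all genes by p. Il4 stood at 0.333 and 0.670 CPM in the WT recipients, against 1.32 and 2.31 CPM after intrathecal and 1.80 and 3.11 CPM after subcutaneous vehicle. It fell by 2.11 ± 0.42 (SE, edgeR adjusted p 0.00513). For all 3, the WT recipients and the vehicle libraries did not overlap. Without WT recipient 1, the edgeR adjusted p of Il4 was 0.102, with a log2 fold change of −1.68.

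Areg stood at 7.501 and 8.66 CPM in the WT recipients, against 10.3 and 6.43 CPM after intrathecal and 12.0 and 10.4 CPM after subcutaneous vehicle. The ranges overlapped, with −0.31 ± 0.26 on the log2 scale (SE, edgeR adjusted p 0.449). Thus 3 of the 4 genes were called lower, against 9.32% of all genes tested. The 2 sets of controls differ in transplantation and in experiment, which cannot be told apart.

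Beside the cytokines, most of the genes that IL-4 and IL-13 are known to induce fell in the WT recipients. Of 16 such targets, 12 passed the test lower and 0 higher, against 9.32% of all genes called lower. Arg1, Mrc1, Muc5ac and Alox15 did not pass. The list's median log2 fold change was −1.61, against 0.01 over all genes. Ccl11, the eotaxin that draws eosinophils, stood at 21.1 ± 12.5 CPM in WT recipients (SD, n = 2), against 118 ± 1.47 CPM after intrathecal and 172 ± 35.6 CPM after subcutaneous vehicle, and fell by 2.80 ± 0.29 on the log2 scale (SE, edgeR adjusted p 0.000412). Retnla, a product of alternatively activated macrophages, fell by 1.97 ± 0.23. Ccl22, a chemokine for type 2 helper T cells, fell by 1.33 ± 0.17, and Cish, a feedback inhibitor of STAT signalling, fell by 0.94 ± 0.11. The 4 named calls held without each library in turn.

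**Figure D2:**
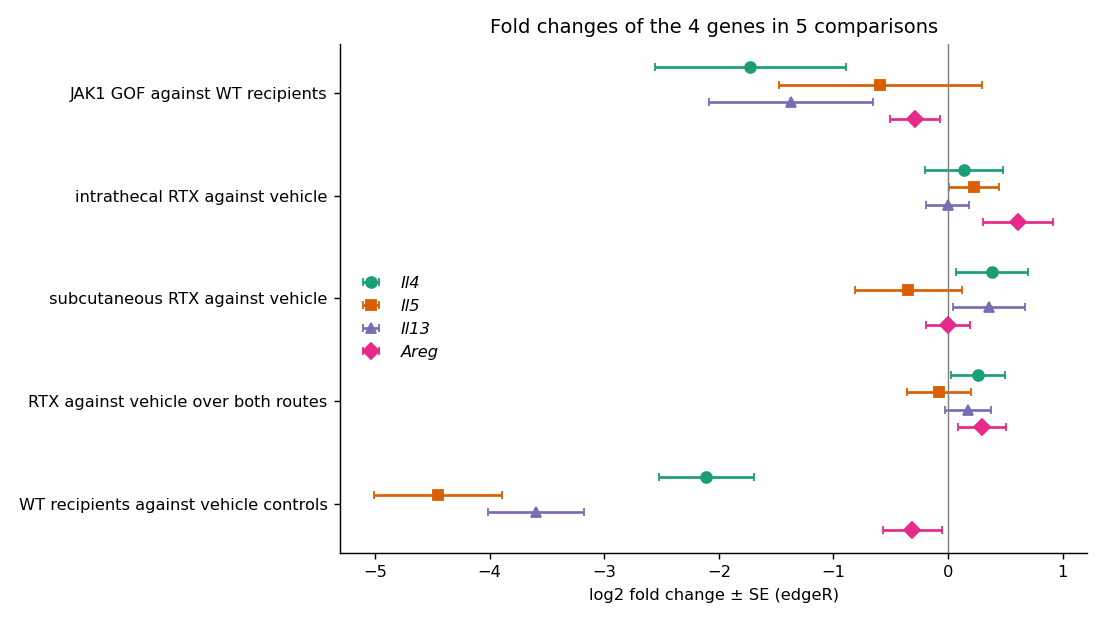
Log2 fold change with its standard error for Il4, Il5, Il13 and Areg in 5 comparisons, from edgeR. The 3 cytokine genes lie far left of 0 in WT recipients against vehicle controls (−4.45 for Il5), with standard errors that are widest in JAK1 GOF against WT recipients.

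Upstream of the cytokines, 3 of the 7 alarmins and alarmin receptors that could be tested fell in WT recipients and 1 rose. The list's median log2 fold change was −0.03, and 9.32% of all genes were called lower. Il33, the alarmin that activates ILC2, stood at 155 ± 77.5 CPM in WT recipients, against 470 ± 27.8 CPM after intrathecal and 592 ± 2.79 CPM after subcutaneous vehicle (SD, n = 2 each). It fell by 1.81 ± 0.25 on the log2 scale. Its receptor Il1rl1 fell by 1.84 ± 0.23 and Il17rb, the receptor chain for IL-25, fell by 2.12 ± 0.29 (edgeR adjusted p 0.00133 for Il33, 0.00071 for Il1rl1 and 0.000619 for Il17rb), while Il1rap, the partner chain of Il1rl1, rose by 0.37 ± 0.12. The list of 8 receptor chains holds those of the members' products and Csf2rb2, a close copy of the common beta chain gene. Of the 8, 2 fell: Il13ra2, a decoy receptor for IL-13, by 2.07 ± 0.52 and Il4ra by 0.54 ± 0.17. Both of those calls and that of Il1rap were lost without WT recipient 1, and those of Il4ra and Il1rap also without several other libraries.

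Of 11 transcription factors of type 2 cells, 4 fell, among them Gata3, the master regulator of type 2 lymphocytes, by 0.86 ± 0.21 and Irf4 by 1.23 ± 0.23. The list had 5 positive and 6 negative log2 fold changes, with a median of −0.18, against 0.01 over all genes, of which 9.32% were called lower. Of 4 testable other cytokines of type 2 cells 1 passed, Il6, which fell by 1.53 ± 0.28. The calls of Gata3, Irf4 and Il6 were lost without WT recipient 1, and that of Gata3 also without WT recipient 2. Of the 8 testable EGF receptor ligands and shedding factors 0 passed in edgeR, with 1 at an unadjusted p under 0.05 (5729 of 18364 over all genes), and Areg's neighbours Ereg and Btc had log2 fold changes of −0.04 ± 0.34 and −0.18 ± 0.25. Among 11 testable neighbours of the cytokine cluster, 1 fell, P4ha2, by 0.42 ± 0.08, and Rad50, between Il13 and Il5, had 0.09 ± 0.09.

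Cell type markers also differed between these controls, where 9.32% of all genes were called lower. Summed CPM of 9 ILC2 and Th2 cell markers was 145 to 151 in WT recipients, against 211 to 222 after intrathecal and 190 to 299 after subcutaneous vehicle, and 4 of the 9 fell (Il17rb, Il1rl1, Il2ra and Gata3, of which 3 are also in the lists above). Of 10 T cell markers 0 passed in edgeR, with 2 at an unadjusted p under 0.05, and their sum was 148 to 184 CPM in WT recipients, against 110 to 123 and 130 to 188 CPM. The sum of 10 eosinophil markers was 142 to 242 CPM in WT recipients, against 260 to 303 and 314 to 458 CPM, with Ear2 the 1 marker to fall. Of 6 regulatory T cell markers 3 fell (Tnfrsf4, Tnfrsf18 and Il2ra), with a sum of 59.6 to 62.1 CPM in WT recipients, against 86.9 to 100.0 and 96.4 to 186 CPM. Il2ra, also an ILC2 and Th2 marker, differed most in CPM, at a mean of 13.4 in WT recipients, against 42.1 and 66.7. The list had 2 positive and 4 negative log2 fold changes. Foxp3, their defining factor, had a log2 fold change of 0.39 ± 0.24, and Ikzf2 averaged 14.3 CPM in WT recipients, against 12.6 and 12.1 CPM. Of 11 testable mast cell and basophil markers Hdc fell and Gata2 rose, with a list median of −0.67. Of 10 lung epithelial markers 2 fell (Krt18 and Epcam), and of 8 heart muscle markers 0 passed in edgeR, with 0 at an unadjusted p under 0.05. The calls of Tnfrsf4, Tnfrsf18, Il2ra, Hdc, Gata2, Krt18 and Epcam were lost without WT recipient 1, that of Il2ra also without WT recipient 2, and that of Gata2 also without most of the other libraries. No marker of these lists was at 0 in all 14 libraries. Across all lists, 24 genes named by rule were called in this comparison and 16 of the calls were lost without WT recipient 1. The part of these cell types in the cytokine values was not tested.

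The chimera experiment itself addressed what JAK1 GOF in the cells left from the recipient does when the blood cells come from WT marrow. All 4 genes had negative log2 fold changes in JAK1 GOF recipients, and none passed the test. Il4 had 4 and 2 counts (0.179 and 0.1099 CPM) in the JAK1 GOF recipients, against 7 and 14 counts (0.333 and 0.670 CPM) in the WT recipients. The JAK1 GOF libraries were both below the WT libraries, and 1 of them was under the 3 counts that a count of 0 allows. Pooled over libraries, the level was 0.148 CPM (95% Poisson interval 0.0543 to 0.322) in JAK1 GOF and 0.501 CPM (0.310 to 0.766) in WT recipients, intervals that cover counting error only.

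Il13 stood at 0.403 and 0.165 CPM in JAK1 GOF recipients, against 0.429 and 1.10 CPM in WT recipients. The ranges did not overlap, but the nearest libraries, at 9 counts each, were almost level. Pooled, Il13 was at 0.296 CPM (95% Poisson interval 0.153 to 0.517) in JAK1 GOF and 0.764 CPM (0.522 to 1.08) in WT recipients. Il5 stood at 0.0896 and 0.330 CPM in JAK1 GOF recipients, against 0.333 and 0.287 CPM in WT recipients, and overlapped between them. Areg stood at 5.87 and 7.31 CPM in JAK1 GOF recipients, against 7.501 and 8.66 CPM in WT recipients, and did not overlap.

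The 3 cytokine genes did not pass the usual count filter and were tested among 20394 genes with at least 10 counts in all. In edgeR's quasi-likelihood test the log2 fold change was −1.72 ± 0.83 for Il4 (SE, adjusted p 0.496), −1.37 ± 0.72 for Il13 (0.539) and −0.59 ± 0.89 for Il5 (0.872). For Areg, tested among 17298 genes, the value was −0.29 ± 0.22 (SE, edgeR adjusted p 0.672). Of the 4 genes 0 were called by edgeR and 0 had an unadjusted p under 0.05, against 0.637% of genes called with the wider filter and 0.717% with the usual one. DESeq2 gave no adjusted p for the 3 cytokine genes. Il4 and Il13 were lower in both JAK1 GOF libraries, as were 22.6% of genes under the wider filter, and Areg was too, as were 23% under the usual one. Without JAK1 GOF recipient 1, the log2 fold change of Il5 was 0.10.

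Of the 16 targets of IL-4 and IL-13, 2 fell in JAK1 GOF recipients, against 0.717% of all genes called in either direction. All 16 had negative log2 fold changes, with a median of −1.50, against 0.00 over all genes. Chil3, a chitinase-like product of alternatively activated macrophages with the close copy Chil4, stood at 359 ± 7.46 CPM in JAK1 GOF recipients, against 1380 ± 409 CPM in WT recipients (SD, n = 2 each). It fell by 1.94 ± 0.22 on the log2 scale (SE, edgeR adjusted p 0.00547). Ccl22 fell by 1.26 ± 0.19 (edgeR adjusted p 0.0267), a call lost without either JAK1 GOF library. Clca1 and Muc5ac, goblet cell genes that IL-13 induces, had −3.23 ± 0.41 and −2.99 ± 0.35 (edgeR adjusted p 0.0686 and 0.0587). Clca1 stood at 62.2 ± 24.5 CPM in JAK1 GOF recipients, against 587 ± 196 CPM in WT recipients.

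**Figure D3:**
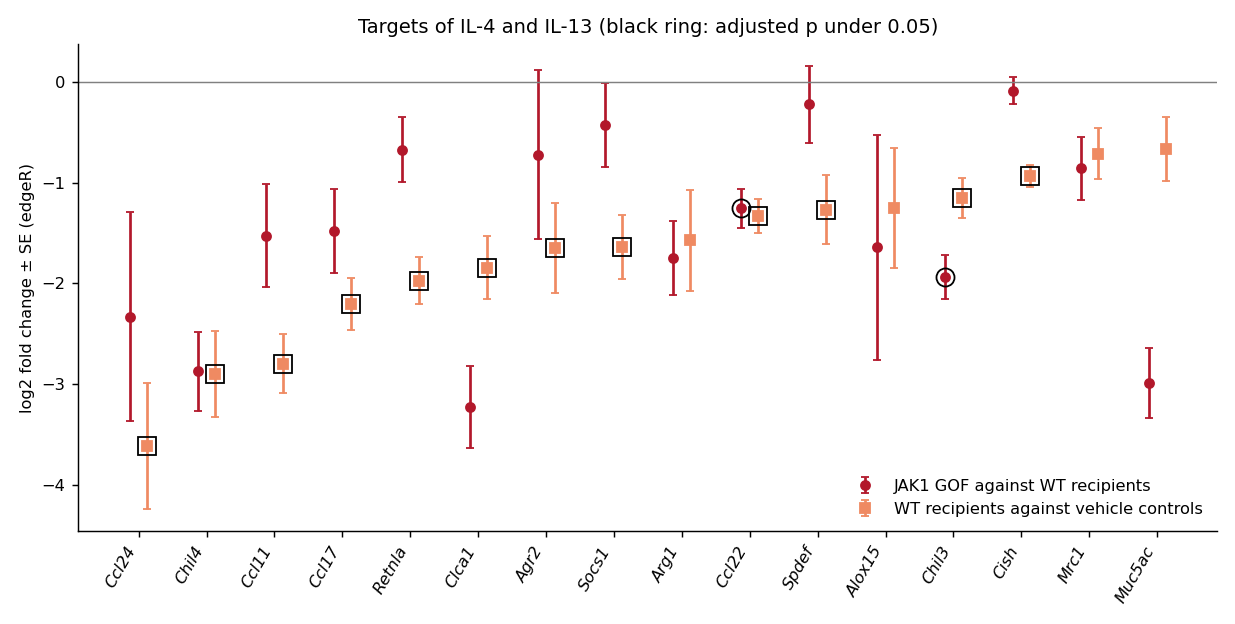
Log2 fold change with its standard error (edgeR) of 16 genes induced by IL-4 and IL-13, in JAK1 GOF against WT recipients (circles) and in WT recipients against vehicle controls (squares), with a black ring where the adjusted p was under 0.05. All 16 lie below 0 in both comparisons, with 2 rings among circles and 12 among squares, and the WT recipients are in both.

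Of the 7 testable receptor chains 0 passed in edgeR, with 3 at an unadjusted p under 0.05, which 2001 of 17298 genes had in this comparison. Csf2rb, which encodes the common beta chain, and its close copy Csf2rb2 may share reads. They came nearest, at −0.79 ± 0.17 and −0.77 ± 0.17 (edgeR adjusted p 0.0686 and 0.0791). Il4ra had −0.19 ± 0.13 and Egfr, the receptor of amphiregulin, −0.15 ± 0.17. Among alarmin receptors Il7r fell by 1.09 ± 0.15 (edgeR adjusted p 0.0123) and Il1rl1 by 1.39 ± 0.24 (edgeR adjusted p 0.0267), the last a call lost without either JAK1 GOF library. Il33 had −0.41 ± 0.42. Of 8 testable EGF receptor ligands and shedding factors, 11 transcription factors of type 2 cells and 11 neighbours of the cytokine cluster, 0 passed in edgeR, with 0, 5 and 1 at an unadjusted p under 0.05.

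Markers of several cell types also differed between these recipients, where 0.717% of all genes were called in either direction. Of 9 ILC2 and Th2 cell markers 4 fell (Il7r, Il2ra, Il1rl1 and Icos), with a sum of 93.1 to 96.0 CPM in JAK1 GOF recipients, against 145 to 151 CPM in WT recipients. Il7r and Il1rl1 are also the alarmin receptors named above. Of 10 T cell markers 3 fell (Cd4, Cd6 and Cd3e), with a sum of 74.9 to 113 CPM against 148 to 184 CPM. Of 6 regulatory T cell markers 3 fell (Il2ra, Ctla4 and Foxp3), with 26.9 to 31.0 CPM against 59.6 to 62.1 CPM. Il2ra is in this list and in the ILC2 and Th2 list. The 10 eosinophil markers summed to 97.2 to 99.2 CPM in JAK1 GOF recipients, against 142 to 242 CPM in WT recipients, and 0 of the 9 testable ones passed in edgeR, with 7 at an unadjusted p under 0.05 (2001 of 17298 over all genes). Among the 10, Epx was at 0 in both JAK1 GOF libraries and at 0.143 and 0.191 CPM in the WT libraries. The WT values are at or near the level of 3 counts, 0.143 and 0.144 CPM there. Of 10 testable mast cell and basophil markers 0 passed in edgeR, with 6 positive and 4 negative values (median 0.13). Their list sum was 300 to 307 CPM against 280 to 306 CPM, and Tpsb2 and Cpa3 had 1.87 ± 0.68 and 1.16 ± 0.47. Of 10 lung epithelial markers 0 passed in edgeR, with 9 positive values and 1 negative. Of 8 heart muscle markers 5 rose, with a sum of 527 to 545 CPM in JAK1 GOF recipients, against 241 to 347 CPM in WT recipients. Of 15 list genes that the rule named and edgeR called in this comparison, 9 lost the call without 1 library or another. The part of these cell types in the cytokine values was not tested.

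Intrathecal RTX addressed the loss of spinal afferents. None of the 4 genes passed the test, and none had ranges that were separate between RTX and vehicle. Il13 stood at 7.81, 6.86 and 7.26 CPM after RTX, against 6.05 and 8.79 CPM after vehicle, so that all RTX libraries lay between the vehicle ones. Il5 stood at 5.58, 4.77 and 5.001 CPM after RTX, against 3.59 and 5.26 CPM after vehicle. Il4 stood at 2.41, 2.03 and 1.52 CPM after RTX, against 1.32 and 2.31 CPM after vehicle. For each cytokine gene, intrathecal vehicle library 1 was the lowest and library 2 was within or above the RTX values. Rps3a2, a ribosomal protein gene copy, was at 0.0635 to 0.125 CPM in the RTX libraries and at 3.80 to 4.99 CPM in the vehicle libraries, so that within this experiment the difference it marks and the treatment cannot be told apart. Each library was given a library state: Rps3a2 above 2 CPM, failing that Hmga2 above 2 CPM, or neither. With library state as a term in a fit of the 14 libraries together, the log2 fold changes were −0.14 ± 0.59 for Il4, 0.092 ± 0.52 for Il13, 1.10 ± 0.50 for Il5 and 0.52 ± 0.44 for Areg (SE). None of the 4 was called by edgeR. Over all genes, 5 were called in that fit.

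Areg had the largest difference of the 4 after intrathecal RTX, at 10.0, 10.5 and 17.3 CPM, against 10.3 and 6.43 CPM after vehicle. RTX library 3 was the highest of all 14 libraries, and the other RTX libraries were close to vehicle library 1. In edgeR's quasi-likelihood test over 17360 genes, the log2 fold change was 0.61 ± 0.31 for Areg (SE, adjusted p 0.498), 0.23 ± 0.22 for Il5 (0.740), 0.14 ± 0.34 for Il4 (0.916) and −0.00 ± 0.19 for Il13 (0.996). Of the 4 genes 0 were called, against 0.311% of all genes, 0 had an unadjusted p under 0.05, and DESeq2 and limma voom called 0. Of the 4 genes 0 did not overlap, against 30.3% of all genes. With no filter on low counts, Areg had an edgeR adjusted p of 0.0162. Its 14 other alternatives gave log2 fold changes of 0.30 to 0.98 and adjusted p-values above the threshold.

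Of the 121 testable genes of all lists, 0 were called after intrathecal RTX by edgeR and 29 had an unadjusted p under 0.05, against 1993 of all 17360 genes. Of the 29 that the rule named, DESeq2 called 4 and limma voom 0. Il10, a regulatory cytokine, came nearest, at 2.72 ± 0.695 CPM after RTX (SD, n = 3), against 0.703 ± 0.0945 CPM after vehicle (SD, n = 2), with a log2 fold change of 1.95 ± 0.36 (SE, edgeR adjusted p 0.0645). Ccl24, an eotaxin, had 0.72 ± 0.13 (edgeR adjusted p 0.0734). Il33 had 0.52 ± 0.15 and Il17rb −0.77 ± 0.19 (edgeR adjusted p 0.266 and 0.158), and Il33 had −0.19 with library state as a term. The medians of the target list and of the ILC2 and Th2 marker list were 0.07 and −0.27, against 0.01 over all genes.

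Subcutaneous RTX addressed the loss of vagal and spinal afferents together. Again none of the 4 genes passed, and the vehicle libraries differed widely from each other. Il13 stood at 15.8, 13.1 and 13.3 CPM after RTX, against 6.82 and 15.0 CPM after vehicle. Il5 stood at 9.66, 5.76 and 8.47 CPM after RTX, against 5.14 and 15.0 CPM after vehicle. Il4 stood at 3.90, 3.21 and 2.59 CPM after RTX, against 1.80 and 3.11 CPM after vehicle. In each case vehicle library 1 was the lowest of the 5, while vehicle library 2 was within or above the RTX values, and Il4, Il5 and Il13 together came to 13.8 CPM in vehicle library 1 and 33.1 CPM in library 2. Rps3a2 split these libraries too, at 6.37 and 4.71 CPM in RTX libraries 2 and 3. It was at 0.194 CPM in RTX library 1 and at 0.0934 and 0.235 CPM in the vehicle libraries.

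Areg stood at 9.42, 10.4 and 14.03 CPM after subcutaneous RTX, against 12.0 and 10.4 CPM after vehicle, and the vehicle libraries lay within the RTX range. In edgeR's quasi-likelihood test over 17363 genes, the log2 fold change was 0.38 ± 0.32 for Il4 (SE, adjusted p 0.548), 0.36 ± 0.31 for Il13 (0.584), −0.35 ± 0.47 for Il5 (0.734) and 0.00 ± 0.19 for Areg (1.00). Of the 4 genes 0 were called, against 0% of all genes, 0 had an unadjusted p under 0.05, and 0 did not overlap, against 38.3% of all genes. Over all genes edgeR called 0, with 3153 at an unadjusted p under 0.05, while DESeq2 called 744 and limma voom 0. Without vehicle library 2, Il13 was called, with a log2 fold change of 1.03 (edgeR adjusted p 0.0302), and Il5 had 0.62 (edgeR adjusted p 0.295). Then 1 vehicle library was left, which is assumed to vary like the RTX libraries.

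Of the 123 testable genes of all lists, 0 were called after subcutaneous RTX by edgeR and 29 had an unadjusted p under 0.05, against 3153 of all 17363 genes. DESeq2 called 13 of the 23 named by rule that it tested, and limma voom called 0. Eosinophil markers, whose cells depend on IL-5, all had positive log2 fold changes (10 of 10, median 1.01, against −0.00 over all genes), and their sum was 561 to 709 CPM after RTX, against 314 to 458 CPM after vehicle. Epx, the eosinophil peroxidase, had 1.98 ± 0.54 and Siglecf 0.78 ± 0.17 (edgeR adjusted p 0.145 and 0.127). Il13ra2 stood at 6.68 ± 2.33 CPM after RTX (SD, n = 3), against 2.95 ± 0.857 CPM after vehicle (SD, n = 2), with 1.17 ± 0.36 (edgeR adjusted p 0.175). Il17rb had 0.80 ± 0.19 and Ccl22 0.65 ± 0.14 (edgeR adjusted p 0.130 and 0.124). All 10 lung epithelial markers had negative values, with a sum of 13963 to 16173 CPM after RTX, against 20177 to 27460 CPM after vehicle. All 11 testable mast cell and basophil markers had positive values (median 0.69), with a list sum of 315 to 348 CPM after RTX, against 288 to 303 CPM after vehicle. All 8 heart muscle markers had negative values (median −0.88), with a sum of 138 to 173 CPM after RTX, against 116 to 417 CPM after vehicle. The part of these cell types in the other values was not tested.

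For none of the 4 genes did the difference between the routes pass the test. The subcutaneous minus the intrathecal log2 effect was −0.60 ± 0.40 for Areg (SE, edgeR adjusted p 0.499), −0.57 ± 0.56 for Il5 (0.672), 0.37 ± 0.40 for Il13 (0.701) and 0.25 ± 0.48 for Il4 (0.844). Of the 4 genes 0 were called by edgeR, against 0.0556% of the 17972 genes tested, and 0 had an unadjusted p under 0.05. With both routes in 1 fit and experiment as a term, RTX against vehicle gave 0.30 ± 0.21 for Areg (SE, edgeR adjusted p 0.568), 0.26 ± 0.24 for Il4 (0.657), 0.18 ± 0.20 for Il13 (0.735) and −0.08 ± 0.28 for Il5 (0.927). Of all 17972 genes 0 (0%) were called by edgeR in that fit, with 2401 at an unadjusted p under 0.05, and this single fit shares its libraries with the comparisons above. With DESeq2 as well, 0 of the 4 genes were called in it.

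How the 4 genes varied with each other was described over the 10 libraries of the RTX experiments. For the cytokine genes the transplanted libraries form a separate cluster, and they were left out of these correlations. These 10 libraries come from 2 experiments, and no term for experiment was used. The cytokine genes had higher means in both subcutaneous groups than in both intrathecal groups. On log2 CPM, Il4 and Il13 had a Pearson r of 0.909 and a Spearman rho of 0.915, Il5 and Il13 had 0.866 and 0.939, and Il4 and Il5 had 0.765 and 0.903. Without the 2 libraries farthest from the median of the first gene of each pair, r was 0.860, 0.824 and 0.632. Areg did not follow them over these 10 libraries, with r of −0.324 to Il4, −0.0974 to Il13 and 0.00521 to Il5. Among 13412 genes ranked by r with Il4, Il13 was at place 46, Il5 at place 664 and Areg at place 9265. Ranked by r with Il13, Il4 was at place 92, Il5 at place 329 and Areg at place 7437. Many other genes thus had a higher r with Il4 and with Il13 than Il5 had. Over all 14 libraries, which hold both cytokine levels, Areg had r of 0.586 to Il4, 0.638 to Il13 and 0.658 to Il5.

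**Figure D4:**
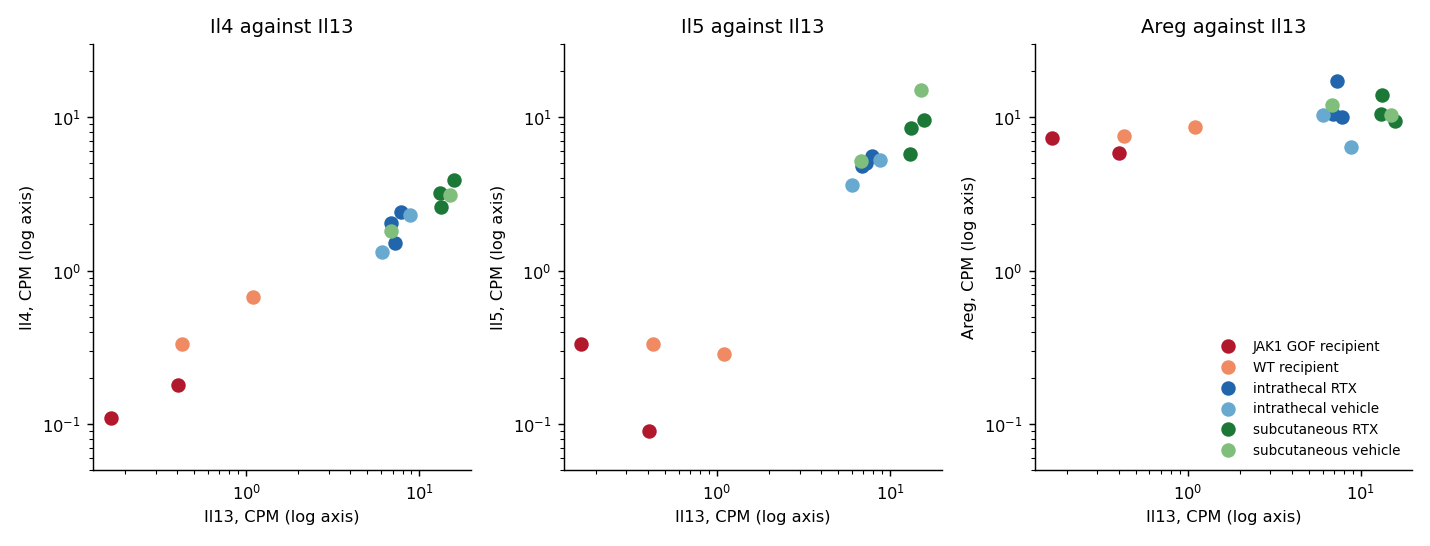
CPM of Il4, Il5 and Areg against CPM of Il13 in the 14 libraries, on log axes, coloured by group. Il4 and Il5 are high where Il13 is high among the 10 libraries of the RTX experiments (r = 0.909 and 0.866), and Areg stays between 5.87 and 17.3 CPM along the whole Il13 axis.

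Proportions between the genes were compared per kilobase of merged exons, which measure 1227 bases for Il4, 1537 for Il5, 1205 for Il13 and 1215 for Areg. Per length, Il13 exceeded Il5 in all 10 libraries of the RTX experiments, by 1.27 to 2.90 times. The ratio was 1.82 ± 0.0346 after intrathecal RTX (SD, n = 3) and 2.14 ± 0.00966 after intrathecal vehicle (SD, n = 2), values that did not overlap. It was 2.33 ± 0.498 after subcutaneous RTX and 1.48 ± 0.295 after subcutaneous vehicle, which did not overlap either but went the other way. The CPM of 30.3% of all genes did not overlap in the intrathecal comparison, and of 38.3% in the subcutaneous one. Those shares are for single genes, and none was computed for ratios of 2 genes. The intrathecal ratios rest on 79 to 194 counts of each gene per library. These differences in proportion were not tested. Il4 per length was 0.191 to 0.303 of Il13 in those 10 libraries and 0.436 to 0.764 of it in the 4 transplanted ones. The transplanted ratios rest on only 2 to 14 counts of Il4 and 3 to 23 counts of Il13 per library, and this difference was not tested.

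Areg per length was 14.4 and 44.0 times Il13 in the JAK1 GOF recipients and 17.4 and 7.80 times Il13 in the WT recipients. In the RTX experiments it was 0.592 to 2.36 times Il13. Areg was thus the most abundant of the 4 per length in each transplanted library. Il13 exceeded it in 4 libraries, with ratios of 0.592 and 0.788 after subcutaneous RTX, 0.687 after subcutaneous vehicle and 0.726 after intrathecal vehicle. The ratios in transplanted libraries rest on 3 to 23 counts of Il13.

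The genes whose log2 CPM was most like a member's over the 10 libraries were taken from 13412 candidates whose log2 CPM averaged 1 or more. Again no term for experiment was used. For Il4 these were Kri1 (r = 0.983), Eri1, Otud5, Prr3 and Gpr174, and for Il13 Mfsd10 (r = 0.976), Rhno1, Tnfrsf8, Vdr and Kri1. For Il5 they were Olfm1 (r = 0.943), Cd96, Eif4e2, Cd209e and Cenpm, and for Areg Sgpp2 (r = 0.926), Serpinb6b, Tmem254b, Hook2 and Pgm1. Kri1 was shared by Il4 and Il13, and no list held another of the 4 genes. Over all 14 libraries, where the 2 levels set the order, 0 of 5 remained for Il4, Il5 and Il13 and 1 of 5 (Pgm1) for Areg. Sgpp2 had a Spearman rho of 0.455 with Areg, beside its r of 0.926.

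Of 8 other cytokines that type 2 cells can make, some were at or near 0 counts and others were not. Lif, a cytokine of the IL-6 family, stood at 11.5 ± 0.647 CPM in JAK1 GOF recipients and 12.2 ± 2.57 CPM in WT recipients (SD, n = 2 each). Il6, which many other cells also make, stood at 4.59 ± 0.555 CPM after intrathecal RTX (SD, n = 3) and 3.38 ± 0.682 CPM after its vehicle (SD, n = 2). Il9 and Il3 were at 0 counts in all 4 transplanted libraries, where 3 counts would be 0.134 to 0.165 CPM, and Il31 was at 0 in all 14. Il9 reached 0.133 ± 0.0328 CPM after intrathecal RTX (SD, n = 3), at or near the level of 3 counts, and was at 0 in both intrathecal vehicle libraries. Csf2, another cytokine of ILC2 and T cells, stood at 2.29 ± 1.36 CPM in WT recipients, against 2.41 ± 0.263 CPM after intrathecal and 2.35 ± 1.21 CPM after subcutaneous vehicle (SD, n = 2 each). Its log2 fold change between these controls was −0.10 ± 0.40 (SE, edgeR adjusted p 0.899), and the difference from Il5 was not tested.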

How the data were processed

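Whole-lung RNA was selected with oligo(dT) and made into NEBNext Ultra II libraries for sequencing, per the labels' protocols. The submitters' processing notes name FastQC 0.11.8, Trim Galore 0.6.6, STAR 2.7.5b, Salmon 1.2.1 and GRCm38. The authors deposited 3 tables of expected counts (Salmon estimates, of which 24.2% of values were not whole), 1 for each experiment. How reads shared by close copies or opposite strands were assigned is not given in the sources used here.

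Libraries were grouped by their labels. CPM was taken from each library's total, and counts were rounded to whole numbers for tests. Every experiment had its own edgeR 4.0.16 fit (TMM factors, the filterByExpr filter at 10 counts and a total of 15, robust quasi-likelihood F test, Benjamini-Hochberg adjustment over all genes tested, threshold 0.05). Members that failed this filter were tested in a fit of all genes with at least 10 counts in total. Levels and the controls of different experiments were compared in 1 fit of all 14 libraries; the tables carry the same 54347 genes. Alternatives used DESeq2 1.42.0, limma 3.58.1, other filters, scalings and thresholds, each library left out, and a term for library state (Rps3a2 above 2 CPM, failing that Hmga2 above 2 CPM, or neither). The tests were tried on simulated counts. Figures were drawn with matplotlib 3.10.9.

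From each of 15 gene lists, the named genes are up to 4 past the threshold by smallest p, or, where 0 passed, the 2 with the smallest p. Receptor chains, alarmins, targets and the neighbours Ereg, Btc and Rad50 were also named beside members. Members and lists were chosen with earlier results of these data known. Totals of 18198872 to 24393000 counts put 3 counts at 0.123 to 0.165 CPM in a library, and Poisson intervals (95%, exact) and floors cover counting error only. Positions are from GENCODE annotation of GRCm38, in which 53307 gene IDs matched with their version, and promoter windows are RefSeq's.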

Additional observations from a re-analysis of the deposited data

How the results depend on the processing

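For the 4 genes, 424 alternatives over 28 results were run: 392 kept direction and side of the threshold, 1 lost a call, 6 gained one and 25 turned the sign of a result that had not passed.

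The number of genes called in JAK1 GOF against WT recipients was 124, against 807 without a count filter, 309 with DESeq2, 79 without robust fitting, 50 in a fit of all 14 libraries, 286 at an adjusted p of 0.1, and 83 to 919 with 1 library left out (919 without WT recipient 1). For intrathecal RTX it was 54, against 655, 247, 34, 7 and 123 in the same order, 5 with library state as a term, and 19 to 40 with 1 library left out. For subcutaneous RTX it was 0, against 807 without a filter, 744 with DESeq2, 71 with all 14 libraries, 184 with library state, 62 at 0.1, and 0 to 871 (871 without subcutaneous vehicle 2). The cause was not tested.

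With no filter, Areg had a log2 fold change of 0.62 after intrathecal RTX (edgeR adjusted p 0.0162) and a span of 0.98 over the 6 groups (4.13e-07), and DESeq2 gave 0.98 (0.0107). After intrathecal RTX, Il13 turned to 0.021 with limma voom and 0.092 with library state, and Il4 to −0.14 with library state. After subcutaneous RTX, Areg turned to −0.0033 with no filter, −0.0014 at 1 CPM in 2 libraries and −0.023 with limma voom.

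With 1 library left out, log2 fold changes in JAK1 GOF against WT recipients ran over −1.72 to 0.10 for Il5, −0.32 to 0.99 for Csf2, −1.09 to 2.29 for Il17a and −1.05 to 0.056 for Il6. After intrathecal RTX they ran over −0.22 to 0.60 for Il4, −0.028 to 0.53 for Il5 and −0.26 to 0.29 for Il13. After subcutaneous RTX they ran over −0.93 to 0.62 for Il5, −0.11 to 1.03 for Il13, −0.19 to 0.11 for Areg, −0.14 to 0.47 for Lif, −1.26 to 0.93 for Il10, −0.38 to 1.13 for Il21, −1.69 to 0.50 for Tnni3 and −1.33 to 0.66 for Ifng. For the difference between routes they ran over −0.22 to 0.70 for Il4, −1.15 to 0.40 for Il5 and −0.099 to 1.05 for Il13, and over both routes −0.30 to 0.37 for Il5 and −0.053 to 0.37 for Il13. The span of Areg ran over 0.81 to 1.15, and Il4 in WT recipients against vehicle controls over −2.72 to −1.68.

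Of the named list genes, 1864 alternatives over 121 results kept direction and side in 1655, lost a call in 98, gained one in 91 and turned sign in 20. With library state as a term, Csf2 had −0.17 in JAK1 GOF against WT recipients and Il21 −0.18 after subcutaneous RTX. After intrathecal RTX it gave Ereg −0.0037, Il33 −0.19, Agr2 −0.87, Ear2 −0.13, Nppa −2.40 and Tnni3 −0.64. Groups of 2 and 3 libraries, and at most 23 counts of a cytokine gene per library in transplanted mice, limit what could be detected.

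Replicate numbers are shared between groups, but deviations of same-numbered libraries correlated at −0.126 to 0.0331, so the numbers do not pair them. The replicate block gave 123, 46 and 0 genes called in the chimera, intrathecal and subcutaneous comparisons, and called 0 of the 12 member results. Under the block, Il13 had 0.014 after intrathecal RTX, and Areg −0.18 and Il10 0.19 after subcutaneous RTX.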
